A study of Homo sapiens with 9 samples.

Results

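The genes described here carry glucose into the cell, break it down to pyruvate and lactate, and move lactate across the plasma membrane. They are 34 members given by symbol and found by their Ensembl IDs among 60675 genes of the count table. The members are 3 hexokinases, the single isomerase GPI, 3 phosphofructokinases, 4 PFKFB enzymes, 2 aldolases, TPI1, GAPDH, PGK1, PGAM1, 3 enolases, PKM, 2 lactate dehydrogenases, 4 glucose carriers, 3 monocarboxylate carriers and 4 pyruvate dehydrogenase kinases. Of these, 33 had enough counts to be tested, and PFKFB1 did not.

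RNA was sequenced from SC10, SC07 and SC01, which are subclones of the BRAF-mutated line SK-MEL-5, established from a human melanoma. Each subclone grew from a single cell, isolated by limiting dilution without drug, so each clone stands for the progeny of that cell and not for the line. Per the labels, the clones were picked for different first responses to the BRAF inhibitor PLX-4720, and the labels used here do not say which clone responded how. All 9 libraries, 3 per clone, came from untreated cells. Separate cultures behind the 3 libraries of each clone are not stated in the labels, so the spread that p-values measure is that between these libraries and may be technical, and a clone cannot be told apart from any batch of culture or extraction that coincided with it.

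Glycolysis turns glucose into pyruvate, and several of its steps are served by isozymes encoded by different genes with different tissue distributions. Hexokinase, phosphofructokinase and pyruvate kinase are its regulated steps, and PFKFB enzymes set the level of the phosphofructokinase activator fructose-2,6-bisphosphate. Pyruvate dehydrogenase kinases inactivate pyruvate dehydrogenase, which acts on pyruvate inside mitochondria. Tumour cells, melanoma included, are known for releasing lactate even where oxygen is present.

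Total counts were 30224066 to 39454087 per library. SC10 replicate 3 stood apart from the other SC10 libraries: chi-square values per degree of freedom were 10.2 and 11.3 against them and 2.53 between those. Melanocyte markers summed to 15511 to 15731 CPM (counts of a gene relative to the library's total, scaled by the trimmed mean of M values, TMM) in SC10, 24703 to 25214 CPM in SC07 and 10968 to 11635 CPM in SC01, with SOX10 at 0 counts in all 9 libraries. Whether the RNA of SOX10 was absent or its reads were not counted was not tested. TYRP1 and S100B went against the melanocyte marker sum and were highest in SC01, while MITF and MLANA were highest in SC10. MITF averaged 549.7 CPM in SC10, 499 CPM in SC07 and 450 CPM in SC01. MLANA averaged 1514 CPM, 1072 CPM and 604 CPM in the same order. TYRP1 averaged 702 CPM in SC10, 1212 CPM in SC07 and 2394 CPM in SC01, and S100B averaged 133 CPM, 104.5 CPM and 150 CPM in the same order. Keratinocyte markers, KRT1 at 0 among them, summed to at most 27.8 CPM and immune markers to at most 3.92 CPM in any library. Fibroblast markers, 5 of 9 of them tested, summed to 336 to 372 CPM in SC10, 428 to 489.8 CPM in SC07 and 132 to 137 CPM in SC01, and LUM made up nearly all of it, at 350.2 CPM in SC10, 462 CPM in SC07 and 131 CPM in SC01. The other 8 were scarce: COL1A1 averaged 1.15 CPM in SC10, 1.2 CPM in SC07 and 2.04 CPM in SC01, DCN averaged 0.943 CPM in SC10, 2.7 CPM in SC07 and 0.463 CPM in SC01, and the remaining 6 were below 1 CPM in every clone's mean. Endothelial markers, 2 of 4 of them tested, summed to 8.34 to 8.92 CPM in SC10, 14.3 to 15.5 CPM in SC07 and 23 to 24.3 CPM in SC01. Of these, KDR averaged 3.56 CPM in SC10, 5.41 CPM in SC07 and 20.8 CPM in SC01. VWF averaged 4.91 CPM in SC10, 9.37 CPM in SC07 and 2.82 CPM in SC01, and PECAM1 and CDH5 were below 1 CPM in every clone's mean. These marker sums differ between clones along with the results below, and their part in those results was not tested.

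The 34 members together held 1.53 to 1.61% of all counts in SC10, 1.72 to 1.77% in SC07 and 1.54 to 1.56% in SC01. SC07 thus gave this pathway a larger share of its counts than the other clones did in every library, and SC10 and SC01 overlapped. Mitochondrially encoded mRNAs, which are not members, held 9.42 to 9.89% of counts in SC10, 8.52 to 8.96% in SC07 and 6.35 to 6.46% in SC01, and their part in the members' values was not tested. In bulk RNA, fewer cells expressing a gene and less RNA of it per cell cannot be told apart.

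The clones differed at nearly every member, but in different ways at different steps. Tested over the 3 clones together, 32 of 33 members passed an adjusted p of 0.05, where 76.3% of all 18009 genes tested did. The exception was ENO1, the main enolase (adjusted p = 0.0526). In SC10 against SC07, 9 members were higher and 14 lower, a share of 69.7% called, against 47.9% of all genes. In SC10 against SC01, 15 were higher and 12 lower, or 81.8%, against 65.9% of all genes. In SC07 against SC01, 23 were higher and 8 lower, or 93.9%, against 62.0% of all genes.

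Most of these differences were small. A change of at least 2-fold past the threshold was seen for 3 members in SC10 against SC07 (9.09%, against 8.62% of all genes), for 7 in SC10 against SC01 (21.2%, against 19.5%) and for 5 in SC07 against SC01 (15.2%, against 17.8%), shares near those of all genes. The median size of a member's log2 change, regardless of sign, was 0.36 in SC10 against SC07, 0.52 in SC10 against SC01 and 0.52 in SC07 against SC01. Over all genes tested the corresponding medians were 0.26, 0.43 and 0.39. The libraries of the clones compared did not overlap for 25 members in SC10 against SC07, 28 in SC10 against SC01 and 31 in SC07 against SC01, against 53.4%, 69.1% and 67.4% of all genes.

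The balance of directions differed from that of all genes most in SC07 against SC01. There the median log2 change of the members was 0.33, against -0.01 for all genes tested, and 31.5% of all genes were higher and 30.5% lower. The members' medians were -0.08 in SC10 against SC07 and 0.05 in SC10 against SC01, against -0.01 for all genes in both. When libraries were scaled by total counts in place of TMM, the median of all genes shifted to -0.12 in SC07 against SC01. That of the members was then 0.22, with 19 members higher and 9 lower. Under that scaling 40.5% of all calls in SC07 against SC01 were higher, against 50.8% with TMM.

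**Figure D1:**
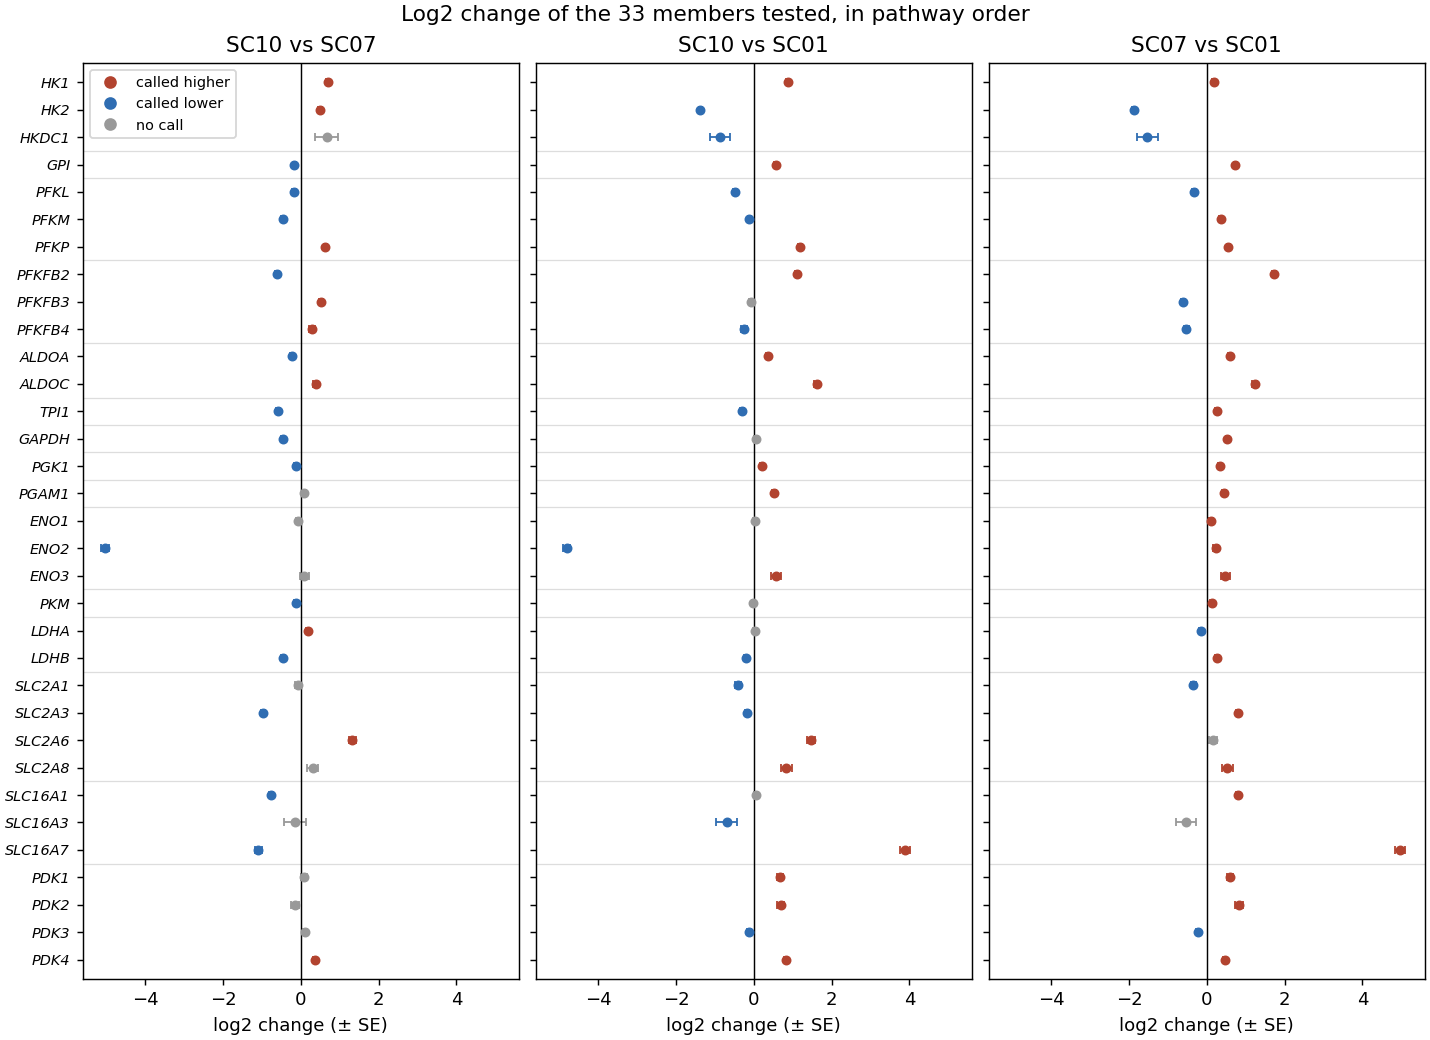
Log2 change of each tested member in the 3 pairs of clones (rows, genes by step; horizontal axis, log2 change with its standard error; red points were called higher and blue points lower at an adjusted p of 0.05, grey points were not called). The widest changes are those of ENO2 (-5.04 in SC10 against SC07) and SLC16A7 (4.97 in SC07 against SC01), while most other members lie within 1 log2 unit of 0.

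The widest differences were in ENO2 and SLC16A7, both minor members of their steps. Throughout, the error after ± is the SD over 3 libraries for a level or a share, and the standard error for a log2 change. That standard error is too small where a clone has few counts, as for ENO2 in SC10 and SLC16A7 in SC01. ENO2 encodes gamma-enolase, the form typical of neurons and neuroendocrine cells, and lies on chromosome 12 at 6913745 to 6923698 (plus strand, GRCh38). Its level was 0.981, 0.831 and 0.975 CPM in SC10, 29.7, 30.6 and 32.2 CPM in SC07 and 25.8, 26.1 and 26.9 CPM in SC01. SC10 was thus nearly without ENO2 RNA, at 97 counts over its 3 libraries against 3239 in SC07 and 2665 in SC01, and no library of it came near those of the other clones. The log2 change was -5.04 ± 0.1 (adjusted p = 7.55e-24) in SC10 against SC07, or 33-fold lower, and -4.81 ± 0.1 (adjusted p = 2.39e-24) in SC10 against SC01, or 28.1-fold lower. ENO2 was slightly higher in SC07 than in SC01 (log2 0.23 ± 0.064, adjusted p = 0.00282), a difference that fell to 0.12 (adjusted p = 0.0919) with total-count scaling.

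SLC16A7 encodes MCT2, a monocarboxylate carrier with high affinity for pyruvate and lactate, at chromosome 12, 59596067 to 59789855 (plus strand). Its level was 25.2, 25.8 and 20.5 CPM in SC10, 52.7, 51.7 and 48 CPM in SC07 and 1.92, 1.77 and 1.14 CPM in SC01. Here SC01 was the clone nearly without the RNA, and the 3 clones did not overlap. The log2 change was 4.97 ± 0.12 (adjusted p = 7.20e-18) in SC07 against SC01, or 31.4-fold higher, and 3.88 ± 0.13 (adjusted p = 9.97e-16) in SC10 against SC01, or 14.7-fold higher. SC10 was in turn lower than SC07 (log2 -1.09 ± 0.085, adjusted p = 2.17e-09).

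Promoter windows of RefSeq (GRCh38.p14, 250 bases before to 50 after a start) are shown for these genes and for HK2 and ALDOC, chosen from the members that changed at least 2-fold after their motifs were seen. Capitals mark the hypoxia response core ACGTG on either strand (read as CACGT when on the opposite strand) and the E-box CACGTG, which contains it. The ENO2 window is chr12:6914330-6914629 (plus strand), the SLC16A7 window, the first of its listed windows, is chr12:59595779-59596078 (plus), the HK2 windows are chr2:74833877-74834176 and chr2:74834920-74835219 (plus), and the ALDOC window is chr17:28576846-28577145 (minus, printed 5′ to 3′ along the gene).
ENO2: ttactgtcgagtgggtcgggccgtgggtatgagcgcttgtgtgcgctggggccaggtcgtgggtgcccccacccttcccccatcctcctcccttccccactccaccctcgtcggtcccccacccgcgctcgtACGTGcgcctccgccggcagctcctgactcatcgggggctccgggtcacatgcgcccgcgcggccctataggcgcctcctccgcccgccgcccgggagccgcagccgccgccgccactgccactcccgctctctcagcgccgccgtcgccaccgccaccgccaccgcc
SLC16A7: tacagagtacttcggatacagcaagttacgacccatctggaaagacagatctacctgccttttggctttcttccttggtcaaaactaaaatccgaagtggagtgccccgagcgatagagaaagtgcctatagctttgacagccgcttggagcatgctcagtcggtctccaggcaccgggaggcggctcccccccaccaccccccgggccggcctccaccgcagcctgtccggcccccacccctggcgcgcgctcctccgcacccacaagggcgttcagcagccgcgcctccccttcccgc
HK2, upstream window: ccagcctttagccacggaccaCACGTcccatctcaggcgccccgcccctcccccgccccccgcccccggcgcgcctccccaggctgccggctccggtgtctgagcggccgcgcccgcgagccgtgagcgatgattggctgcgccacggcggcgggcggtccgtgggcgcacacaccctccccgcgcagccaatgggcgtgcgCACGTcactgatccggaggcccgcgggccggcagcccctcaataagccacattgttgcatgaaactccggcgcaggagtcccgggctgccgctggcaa
HK2, downstream window: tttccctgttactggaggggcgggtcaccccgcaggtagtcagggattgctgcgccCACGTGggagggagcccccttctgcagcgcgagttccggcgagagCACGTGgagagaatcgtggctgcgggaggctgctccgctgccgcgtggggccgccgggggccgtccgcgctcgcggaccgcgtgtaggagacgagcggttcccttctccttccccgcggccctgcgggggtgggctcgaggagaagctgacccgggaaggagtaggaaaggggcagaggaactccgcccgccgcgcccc
ALDOC: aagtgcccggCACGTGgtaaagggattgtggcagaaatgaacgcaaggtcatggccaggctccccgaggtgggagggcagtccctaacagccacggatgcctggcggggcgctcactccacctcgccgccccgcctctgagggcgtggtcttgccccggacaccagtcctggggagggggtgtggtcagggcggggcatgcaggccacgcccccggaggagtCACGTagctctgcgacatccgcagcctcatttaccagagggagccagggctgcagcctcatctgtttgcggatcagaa
The ENO2 window held 1 ACGTG and no E-box, the SLC16A7 window held neither, the downstream HK2 window held 2 E-boxes and the ALDOC window held 1. Of the other members with a 2-fold change, the windows of HKDC1 and SLC2A6 and the second window of SLC16A7 held neither motif, and PFKP had ACGTG in 1 of 4 windows and no E-box. For PFKFB2, which also changed at least 2-fold, no window was found. Windows were found for 31 of the 34 members, and 20 of their 62 windows (32.3%) held ACGTG, against 21.4% of all 35116 windows. CACGTG was in 7 of the members' windows (11.3%), against 7.26% of all. A match is a description of these letters and not a site in use.

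Glucose carriers came first in the path and differed in make-up. To compare genes, CPM was divided by the length of the gene's exons in kilobases, and a gene's share is its part of the step's sum. The summed level of the 4 carriers in CPM per kb was 20.0 ± 0.75 in SC10, 24.3 ± 0.59 in SC07 and 17.4 ± 0.58 in SC01 (SD, n = 3 each), without overlap between clones. SLC2A3 encodes GLUT3, a high-affinity glucose carrier first known from neurons, and had the highest level per kb of the 4. Its level was 55, 54.5 and 52.2 CPM in SC10, 109, 103 and 104 CPM in SC07 and 62, 61 and 58.8 CPM in SC01. SC07 stood above both other clones, with a log2 change of -0.97 ± 0.047 (adjusted p = 1.13e-15) in SC10 against SC07 and 0.80 ± 0.047 (adjusted p = 1.91e-14) in SC07 against SC01. SLC2A3 was also lower in SC10 than in SC01 (log2 -0.17 ± 0.048).

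SLC2A6 encodes GLUT6, a carrier found mainly on intracellular membranes. Its level was 25, 20.9 and 22.9 CPM in SC10, 9.65, 8.04 and 10 CPM in SC07 and 8.24, 8.85 and 7.72 CPM in SC01. SC10 was above the other clones in every library, and SC07 and SC01 overlapped. The log2 change was 1.32 ± 0.09 (adjusted p = 1.65e-12) in SC10 against SC07 and 1.47 ± 0.092 (adjusted p = 5.75e-14) in SC10 against SC01, and 0.16 ± 0.098 (adjusted p = 0.176) in SC07 against SC01, where leaving out SC07 replicate 2 gave 0.26 (adjusted p = 0.0337). As a share of the 4 carriers, SLC2A6 took 32.4 ± 1.8% in SC10, 10.7 ± 0.98% in SC07 and 13.4 ± 0.63% in SC01, while SLC2A3 took 43.9 ± 1.5% in SC10, 70.3 ± 1.6% in SC07 and 56.6 ± 0.47% in SC01.

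SLC2A1, which encodes GLUT1, the carrier most often raised in tumours, was at 15.6 ± 0.83 CPM in SC10, 16.4 ± 0.84 CPM in SC07 and 20.8 ± 0.8 CPM in SC01. SLC2A1 was lower in SC10 and in SC07 than in SC01 (log2 -0.41 ± 0.072 and -0.34 ± 0.072), and SC10 against SC07 did not pass the test (log2 -0.07 ± 0.073, adjusted p = 0.47). SLC2A8, which encodes the intracellular carrier GLUT8, was at 5.66 ± 0.81 CPM in SC10, 4.55 ± 0.67 CPM in SC07 and 3.16 ± 0.21 CPM in SC01. SLC2A8 was higher in SC10 and in SC07 than in SC01 (log2 0.84 ± 0.14 and 0.53 ± 0.14), while SC10 against SC07 did not pass (log2 0.31 ± 0.14, adjusted p = 0.0595) except without SC10 replicate 2 (log2 0.41, adjusted p = 0.0272). The carriers therefore had no common direction in any pair: in SC10 against SC01, for example, 2 were higher and 2 lower.

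Hexokinase traps glucose as glucose-6-phosphate, and its isozymes traded places between clones. HK1, the form expressed in most tissues (chromosome 10, 69269984 to 69401884, plus strand), was at 255, 245.5 and 249.9 CPM in SC10, 159, 148 and 158 CPM in SC07 and 133, 139 and 138 CPM in SC01. All SC10 libraries were above all SC07 libraries, and these above all SC01 libraries. The log2 change of HK1 was 0.69 ± 0.043 (adjusted p = 2.59e-13) in SC10 against SC07, 0.87 ± 0.044 (adjusted p = 3.88e-16) in SC10 against SC01 and 0.18 ± 0.044 (adjusted p = 6.26e-04) in SC07 against SC01. With total-count scaling the last of these was 0.08 (adjusted p = 0.103).

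HK2, the inducible form of muscle and many tumours (chromosome 2, 74833981 to 74893359, plus strand), was at 92.3, 93 and 88.2 CPM in SC10, 61.4, 66.6 and 65.1 CPM in SC07 and 240.3, 235 and 233 CPM in SC01. Here SC01 was far above the other clones and SC07 was lowest, with no overlap. The log2 change of HK2 was 0.50 ± 0.046 (adjusted p = 5.59e-10) in SC10 against SC07, -1.37 ± 0.045 (adjusted p = 2.66e-20) in SC10 against SC01 and -1.88 ± 0.046 (adjusted p = 3.49e-23) in SC07 against SC01.

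The share of HK1 in the hexokinase sum was 72.3 ± 0.73% in SC10, 69.6 ± 1.7% in SC07 and 35.5 ± 0.89% in SC01, and that of HK2 was 27.4 ± 0.71% in SC10, 30 ± 1.6% in SC07 and 63.8 ± 0.95% in SC01. HK1 was thus the larger part in SC10 and SC07, and HK2 in SC01. With the longest coding transcript as the length the shares in SC01 were 45.2% for HK1 and 54.2% for HK2, in the same order. The hexokinase sum itself in CPM per kb was 55 ± 0.85 in SC10, 35.4 ± 0.67 in SC07 and 61 ± 0.24 in SC01. HKDC1, a hexokinase of low activity, was at 1.17, 0.86 and 0.709 CPM in SC10, 0.609, 0.722 and 0.388 CPM in SC07 and 1.51, 1.71 and 1.83 CPM in SC01. HKDC1 was lower in SC10 and in SC07 than in SC01 (log2 -0.87 ± 0.26, adjusted p = 0.00409, and -1.53 ± 0.27, adjusted p = 2.01e-05), while SC10 against SC07 did not pass (log2 0.66 ± 0.29, adjusted p = 0.0638). Without SC10 replicate 3 or SC07 replicate 2 SC10 against SC07 did pass (log2 0.82, adjusted p = 0.0299, and 0.88, adjusted p = 0.0393). Of the sum, HKDC1 took 0.389 ± 0.094% in SC10, 0.382 ± 0.12% in SC07 and 0.647 ± 0.062% in SC01.

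**Figure D2:**
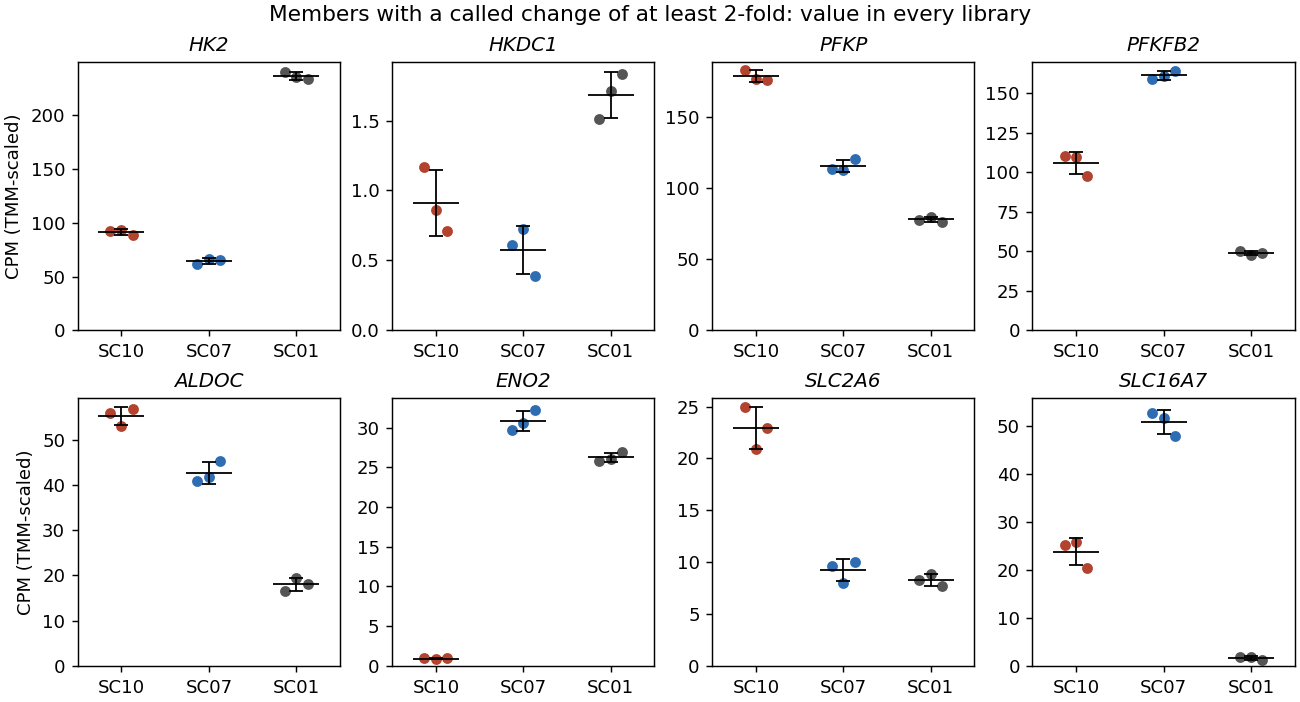
Level of the 8 members with a called change of at least 2-fold in any pair, in each of the 9 libraries (panels, genes; vertical axis, TMM-scaled CPM, each panel with its own scale; points, libraries; bars, clone means with SD). ENO2 is near 0 in SC10 and SLC16A7 in SC01, while HK2 is at 233 to 240.3 CPM in SC01 and at most 93 CPM in the other clones.

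GPI, which converts glucose-6-phosphate to fructose-6-phosphate, was at 848 ± 9.5 CPM in SC10, 955 ± 33 CPM in SC07 and 575 ± 17 CPM in SC01 (SD, n = 3 each). SC07 was highest and SC01 lowest, and all pairs passed the test (log2 -0.17 ± 0.041 in SC10 against SC07, 0.56 ± 0.041 in SC10 against SC01 and 0.73 ± 0.041 in SC07 against SC01).

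Phosphofructokinase commits fructose-6-phosphate to glycolysis as a tetramer of muscle (PFKM), liver (PFKL) and platelet (PFKP) subunits. PFKM was at 237, 235 and 241 CPM in SC10, 329.5, 324 and 336 CPM in SC07 and 251, 257 and 260.2 CPM in SC01. SC07 stood above the other clones, with a log2 change of -0.47 ± 0.04 (adjusted p = 1.44e-10) in SC10 against SC07 and 0.36 ± 0.04 (adjusted p = 7.78e-09) in SC07 against SC01. SC10 was lower than SC01 by a narrow margin (log2 -0.11 ± 0.04, adjusted p = 0.0212), and that call was lost on leaving out any of 4 single libraries, namely SC10 replicate 1 or 2 or SC01 replicate 2 or 3 (adjusted p from 0.0532 to 0.0686).

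PFKP (chromosome 10, 3066333 to 3137712, plus strand) was at 183, 177 and 176 CPM in SC10, 113, 112.5 and 120.1 CPM in SC07 and 77.9, 80.0 and 76.5 CPM in SC01. The clones were ordered SC10, SC07, SC01 from high to low without overlap. Its log2 change was 0.63 ± 0.044 (adjusted p = 2.05e-12) in SC10 against SC07, 1.19 ± 0.045 (adjusted p = 6.55e-19) in SC10 against SC01 and 0.56 ± 0.045 (adjusted p = 1.30e-11) in SC07 against SC01. PFKL ran in the opposite order, at 83.5 ± 3.1 CPM in SC10, 94.1 ± 4.7 CPM in SC07 and 117.5 ± 3.6 CPM in SC01, with a log2 change of -0.17 ± 0.048 in SC10 against SC07, -0.49 ± 0.048 in SC10 against SC01 and -0.32 ± 0.048 in SC07 against SC01.

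The subunit shares followed these levels. PFKP took 46.9 ± 0.62% in SC10, 30 ± 0.31% in SC07 and 25.1 ± 0.69% in SC01, PFKM took 41.2 ± 0.67% in SC10, 56.7 ± 0.57% in SC07 and 54.4 ± 0.27% in SC01, and PFKL took 11.9 ± 0.27% in SC10, 13.3 ± 0.29% in SC07 and 20.5 ± 0.49% in SC01. Whether PFKP or PFKM is the larger part in SC10 depends on the length used, since the longest coding transcripts gave 38.7% for PFKP and 44.2% for PFKM. The sum of the 3 in CPM per kb was 78.8 ± 1.1 in SC10, 79.4 ± 2.2 in SC07 and 64.3 ± 0.84 in SC01, so SC10 and SC07 overlapped in the sum while differing in every subunit.

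PFKFB enzymes make and degrade fructose-2,6-bisphosphate, and the ratio of the activities differs between them. PFKFB2, the heart form (chromosome 1, 207034366 to 207081024, plus strand), had the highest mean level per kb of the 4. Its level was 110.2, 109 and 97.8 CPM in SC10, 159, 161 and 164 CPM in SC07 and 50.3, 47.7 and 49.1 CPM in SC01. No clones overlapped, with SC07 highest and SC01 lowest. The log2 change was -0.61 ± 0.048 (adjusted p = 2.65e-11) in SC10 against SC07, 1.11 ± 0.05 (adjusted p = 4.04e-17) in SC10 against SC01 and 1.72 ± 0.05 (adjusted p = 1.92e-21) in SC07 against SC01.

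PFKFB3, the inducible form with high kinase activity, went the other way and was at 64.3 ± 2.9 CPM in SC10, 44.6 ± 1.8 CPM in SC07 and 67.5 ± 1 CPM in SC01. PFKFB3 was higher in SC10 than in SC07 (log2 0.53 ± 0.051) and lower in SC07 than in SC01 (log2 -0.60 ± 0.051), and SC10 against SC01 did not pass the test (log2 -0.07 ± 0.05, adjusted p = 0.225) except with total-count scaling (log2 -0.18, adjusted p = 0.00193). PFKFB4, described in testis and induced by hypoxia, was at 26.5 ± 0.36 CPM in SC10, 21.8 ± 3 CPM in SC07 and 31.4 ± 1.4 CPM in SC01, higher in SC10 than in SC07 (log2 0.28 ± 0.075) and lower in SC10 and in SC07 than in SC01 (log2 -0.25 ± 0.073 and -0.52 ± 0.074). PFKFB1, the liver form, had 21 counts over the SC10 libraries, 28 over SC07 and 12 over SC01 and was not tested.

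In shares, PFKFB2 was 40.9 ± 0.95% in SC10, 59 ± 0.87% in SC07 and 22.8 ± 0.46% in SC01 and PFKFB3 was 41.5 ± 0.25% in SC10, 27.2 ± 0.92% in SC07 and 52.4 ± 1.1% in SC01. PFKFB2 was thus the larger part in SC07 and PFKFB3 in SC01. In SC10 these shares were close, and the longest coding transcripts put PFKFB2 ahead there, at 40.7% against 38.8% for PFKFB3.

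**Figure D3:**
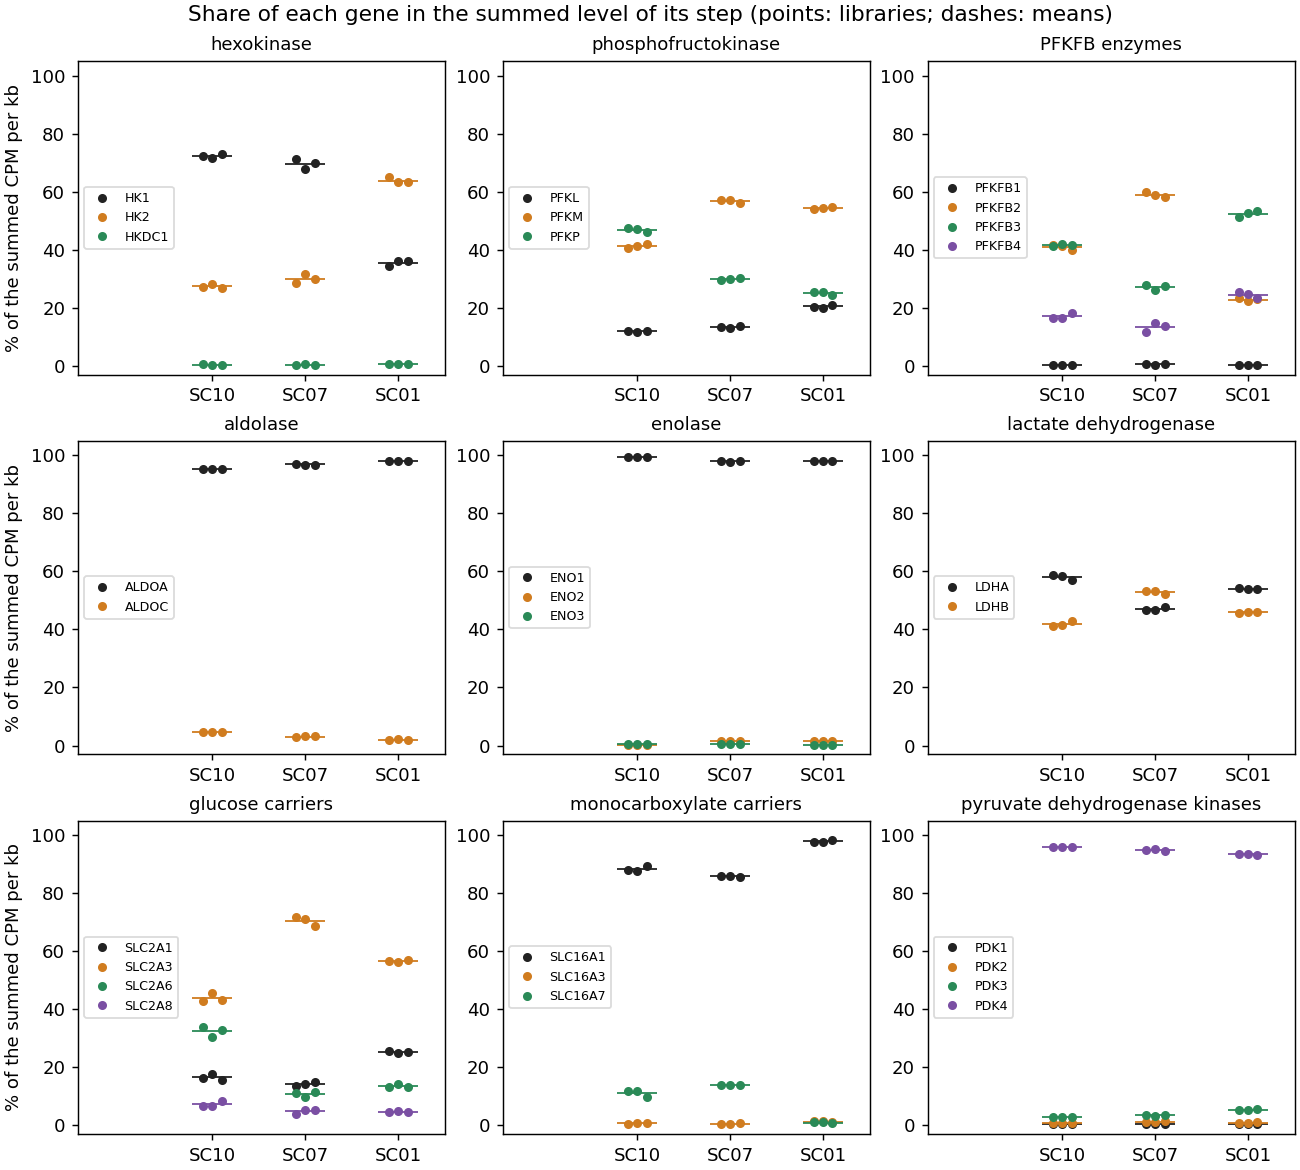
Share of each gene in the summed level of its step, for the 9 steps or families with more than 1 member (vertical axis, % of summed CPM per kb of exon; points, libraries; dashes, clone means). HK1 is the larger hexokinase part in SC10 (72.3%) and SC07 (69.6%) but not in SC01 (35.5%), and PFKFB2 takes 59.0% in SC07 against 22.8% in SC01.

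Aldolase splits fructose-1,6-bisphosphate, and ALDOA, the widespread form, was the main one. Its level was 1518, 1477 and 1545 CPM in SC10, 1764, 1717 and 1854 CPM in SC07 and 1153, 1195 and 1197.5 CPM in SC01. SC07 was highest and SC01 lowest without overlap (log2 -0.23 ± 0.041 in SC10 against SC07, 0.36 ± 0.041 in SC10 against SC01 and 0.59 ± 0.041 in SC07 against SC01). Of the exon bases of ALDOA, 42.3% are shared with an annotated gene on the same strand and 13.3% with one on the other strand. How reads there were counted is not known, so the count of ALDOA is uncertain by an unknown amount.

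ALDOC, the brain form (chromosome 17, 28573115 to 28577264, minus strand), was at 55.9, 53.1 and 56.9 CPM in SC10, 40.8, 41.8 and 45.3 CPM in SC07 and 16.5, 19.5 and 18.1 CPM in SC01. Unlike ALDOA, it was highest in SC10, and no clones overlapped. The log2 change of ALDOC was 0.38 ± 0.059 (adjusted p = 5.43e-06) in SC10 against SC07, 1.62 ± 0.063 (adjusted p = 1.80e-18) in SC10 against SC01 and 1.24 ± 0.064 (adjusted p = 9.14e-16) in SC07 against SC01. Of the aldolase sum, ALDOC took 4.66 ± 0.061% in SC10, 3.1 ± 0.091% in SC07 and 2 ± 0.13% in SC01.

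The steps with a single member came next. TPI1, which interconverts the triose phosphates, was at 539 ± 40 CPM in SC10, 808 ± 28 CPM in SC07 and 669 ± 23 CPM in SC01, and GAPDH, which oxidises glyceraldehyde-3-phosphate, was at 2268 ± 78 CPM in SC10, 3148 ± 97 CPM in SC07 and 2177.5 ± 26 CPM in SC01. SC07 was highest for both. TPI1 was lower in SC10 than in SC07 (log2 -0.58 ± 0.048) and in SC01 (log2 -0.31 ± 0.048) and higher in SC07 than in SC01 (log2 0.27 ± 0.048). GAPDH, often used as a reference gene, differed by log2 -0.47 ± 0.041 (adjusted p = 1.78e-10) in SC10 against SC07 and 0.53 ± 0.041 (adjusted p = 5.39e-12) in SC07 against SC01. In SC10 against SC01 GAPDH did not pass the test (log2 0.06 ± 0.041, adjusted p = 0.21), and its sign there turned with total-count scaling (log2 -0.05). Annotated pseudogenes held counts equal to 2.42 to 2.72% of those of TPI1 and 0.549 to 0.726% of those of GAPDH in the 3 clones, so part of their reads may be counted at copies.

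PGK1, the first step that yields ATP, was at 1054 ± 40 CPM in SC10, 1155 ± 31 CPM in SC07 and 918 ± 31 CPM in SC01, and PGAM1, phosphoglycerate mutase, was at 233 ± 7.2 CPM in SC10, 221 ± 10 CPM in SC07 and 162 ± 8.3 CPM in SC01. PGK1 was lower in SC10 than in SC07 (log2 -0.13 ± 0.042, adjusted p = 0.0108), a call lost without SC07 replicate 1 (adjusted p = 0.0523) or SC10 replicate 2 (adjusted p = 0.0725). It was higher in SC10 and in SC07 than in SC01 (log2 0.20 ± 0.042 and 0.33 ± 0.042). PGAM1 was likewise higher in SC10 and in SC07 than in SC01 (log2 0.52 ± 0.047 and 0.45 ± 0.047), and SC10 against SC07 did not pass (log2 0.08 ± 0.046, adjusted p = 0.182).

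Enolase makes phosphoenolpyruvate, and of this step ENO1, its widespread form, held 99.5 ± 0.034% in SC10, 97.9 ± 0.11% in SC07 and 98.2 ± 0.049% in SC01. Its level was 2110.2, 2033 and 2232 CPM in SC10, 2241, 2174 and 2339.7 CPM in SC07 and 2036, 2102 and 2119 CPM in SC01. Neither SC10 against SC07 (log2 -0.08 ± 0.043, adjusted p = 0.113) nor SC10 against SC01 (log2 0.03 ± 0.043, adjusted p = 0.597) passed the test. Without SC10 replicate 3, ENO1 was lower in SC10 than in SC07 (log2 -0.11, adjusted p = 0.00596). ENO1 was higher in SC07 than in SC01 (log2 0.11 ± 0.043, adjusted p = 0.0272), a call lost without any of 4 single libraries, SC07 replicate 1 or 3 or SC01 replicate 1 or 2 (adjusted p from 0.0625 to 0.115), and it was 0.0035 (adjusted p = 0.943) with total-count scaling. The enolase sum in CPM per kb was 405 ± 19 in SC10, 436 ± 16 in SC07 and 403 ± 8.4 in SC01, of which ENO2 made up 0.0535 ± 0.0034% in SC10, 1.65 ± 0.048% in SC07 and 1.52 ± 0.017% in SC01. ENO3, the muscle form, was at 8.27 ± 0.98 CPM in SC10, 7.75 ± 1.1 CPM in SC07 and 5.56 ± 0.52 CPM in SC01 and was higher in SC10 and in SC07 than in SC01 (log2 0.57 ± 0.12 and 0.48 ± 0.12).

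PKM, pyruvate kinase, was at 2014, 1973 and 2063 CPM in SC10, 2213, 2133 and 2294 CPM in SC07 and 1975, 2043 and 2059 CPM in SC01. PKM was lower in SC10 than in SC07 (log2 -0.13 ± 0.041, adjusted p = 0.00787) and higher in SC07 than in SC01 (log2 0.13 ± 0.041, adjusted p = 0.00802), and the second was 0.02 (adjusted p = 0.636) with total-count scaling. SC10 against SC01 did not pass (log2 -0.01 ± 0.041, adjusted p = 0.904), but with total-count scaling PKM was lower in SC10 (log2 -0.12, adjusted p = 0.00608). Counts per gene do not separate the PKM1 and PKM2 splice forms.

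Lactate dehydrogenase interconverts pyruvate and lactate as a tetramer of LDHA and LDHB subunits. LDHA, the muscle-type subunit, was at 2130.0, 2120.1 and 2296 CPM in SC10, 1946, 1924 and 1924 CPM in SC07 and 2147, 2112 and 2149 CPM in SC01. LDHA was lowest in SC07, with a log2 change of 0.18 ± 0.041 (adjusted p = 6.95e-04) in SC10 against SC07 and -0.15 ± 0.041 (adjusted p = 0.00284) in SC07 against SC01, and SC10 against SC01 did not pass (log2 0.03 ± 0.041, adjusted p = 0.522). Annotated pseudogenes held counts equal to 2.23 to 2.4% of those of LDHA in the 3 clones, so part of its reads may be counted at copies. LDHB, the heart-type subunit, was at 720.5, 721 and 829 CPM in SC10, 1072, 1056 and 1005 CPM in SC07 and 869, 868 and 883.5 CPM in SC01. LDHB was highest in SC07, with a log2 change of -0.46 ± 0.048 in SC10 against SC07, -0.21 ± 0.047 in SC10 against SC01 and 0.26 ± 0.047 in SC07 against SC01. SC10 replicate 3 was the highest SC10 library for both genes, and leaving it out gave -0.53 for LDHB in SC10 against SC07.

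The share of LDHA in the pair was 58.1 ± 0.88% in SC10, 47.1 ± 0.74% in SC07 and 54 ± 0.22% in SC01, without overlap between clones. Which subunit is the larger part in SC07 depends on the length used, since LDHA had 54.1% there with the longest coding transcripts. Of the exon bases of LDHB, 33.4% are shared with another gene on the same strand. Their sum overlapped between SC10 and both other clones, and in CPM per kb it was 605 ± 37 in SC10, 661 ± 13 in SC07 and 637 ± 5.6 in SC01.

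**Figure D4:**
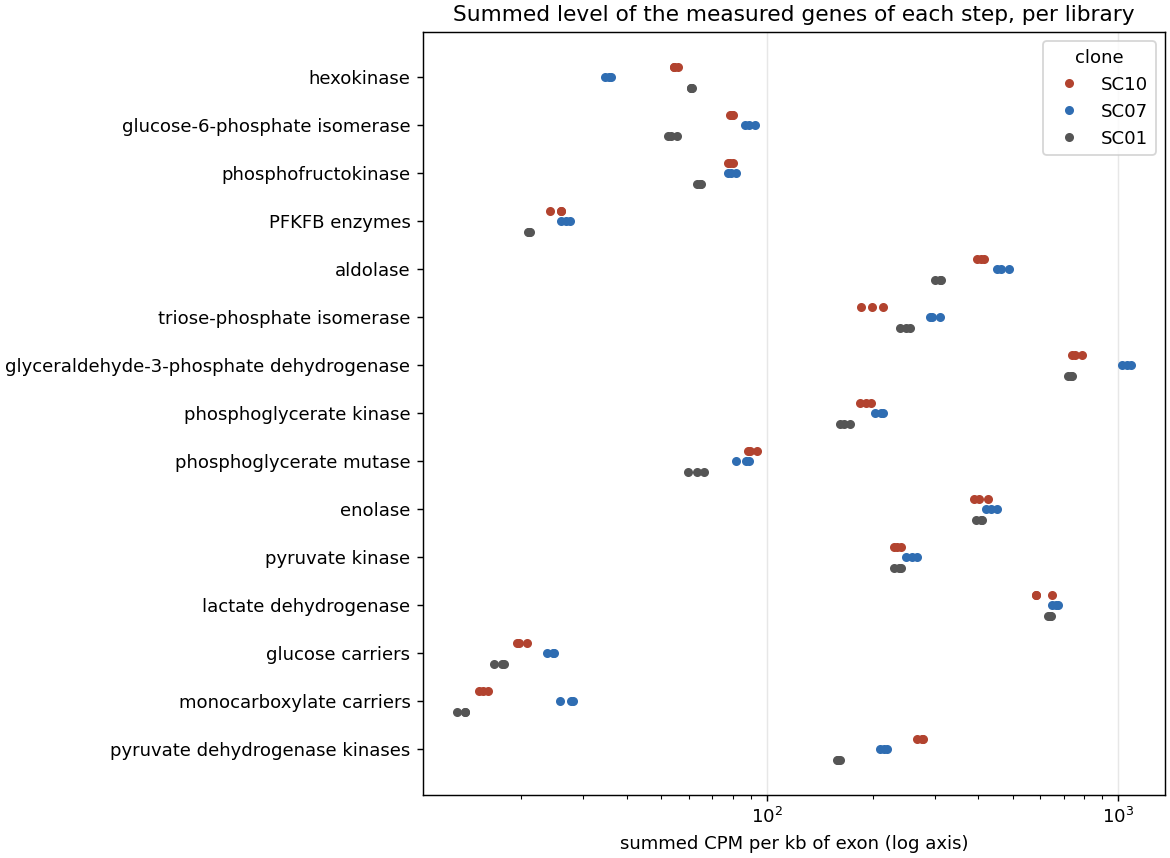
Summed level of each step in the 3 clones (rows, steps in the order of the path; horizontal axis, CPM per kb of exon, log scale; points, libraries). SC07 is highest at the GAPDH step, with 1056 CPM per kb against 761 in SC10 and 730.5 in SC01, and lowest at hexokinase, with 35.4 against 55 in SC10 and 61.0 in SC01.

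Monocarboxylate carriers move lactate and pyruvate with protons. SLC16A1, which encodes MCT1 (chromosome 1, 112911847 to 112957013, minus strand), had the highest level of the 3 per kb. Its level was 72.8, 75.1 and 71.9 CPM in SC10, 128, 126.5 and 117 CPM in SC07 and 71.6, 67.8 and 72.4 CPM in SC01. SC07 stood above both other clones, which overlapped. The log2 change of SLC16A1 was -0.76 ± 0.048 (adjusted p = 2.92e-13) in SC10 against SC07 and 0.81 ± 0.048 (adjusted p = 1.94e-14) in SC07 against SC01, while SC10 against SC01 did not pass (log2 0.05 ± 0.049, adjusted p = 0.35).

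SLC16A3, which encodes MCT4, the carrier of lactate export in strongly glycolytic cells, was scarce, at 0.949 ± 0.28 CPM in SC10, 1.05 ± 0.3 CPM in SC07 and 1.52 ± 0.27 CPM in SC01. Only SC10 against SC01 passed the test (log2 -0.69 ± 0.27, adjusted p = 0.0252), and that call was lost without SC10 replicate 1, SC01 replicate 1 or SC01 replicate 2 (adjusted p from 0.059 to 0.166). SC07 against SC01 gave a log2 change of -0.54 ± 0.26 (adjusted p = 0.0786), and -0.79 (adjusted p = 0.0241) without SC07 replicate 3 and -0.64 (adjusted p = 0.0361) with total-count scaling. In shares, SLC16A1 held 88.2 ± 0.99% in SC10, 85.9 ± 0.14% in SC07 and 97.9 ± 0.46% in SC01 and SLC16A7 held 11.1 ± 1.1% in SC10, 13.7 ± 0.032% in SC07 and 0.87 ± 0.23% in SC01. The sum of the 3 carriers in CPM per kb was 15.6 ± 0.49 in SC10, 27.2 ± 1.3 in SC07 and 13.6 ± 0.44 in SC01. SC07 thus had the highest level of both SLC16A1 and SLC16A7.

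Pyruvate dehydrogenase kinases inactivate pyruvate dehydrogenase, and of the family's sum PDK4, the form raised in fasting and fat oxidation, held 95.9 ± 0.064% in SC10, 94.9 ± 0.37% in SC07 and 93.3 ± 0.21% in SC01. Its level was 1202, 1198 and 1156 CPM in SC10, 924, 947 and 895 CPM in SC07 and 671, 682 and 664 CPM in SC01. The order was SC10, SC07, SC01 without overlap, with a log2 change of 0.36 ± 0.04 (adjusted p = 1.78e-08) in SC10 against SC07, 0.82 ± 0.04 (adjusted p = 2.71e-16) in SC10 against SC01 and 0.46 ± 0.04 (adjusted p = 8.93e-11) in SC07 against SC01. PDK1, known as a target of hypoxia-inducible factor, was at 17.8 ± 0.28 CPM in SC10, 16.9 ± 0.53 CPM in SC07 and 11.2 ± 0.44 CPM in SC01, and PDK2, the widespread form, was at 12.8 ± 0.79 CPM in SC10, 14.2 ± 1.6 CPM in SC07 and 7.98 ± 1.1 CPM in SC01. Both were higher in SC10 than in SC01 (log2 0.68 ± 0.074 for PDK1 and 0.69 ± 0.1 for PDK2) and in SC07 than in SC01 (log2 0.59 ± 0.074 and 0.83 ± 0.1 for the same genes). PDK2 shares 38.6% of its exon bases with a gene on the other strand.

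In the pairs with SC01, PDK3 went against the rest of the family, at 38.4 ± 0.48 CPM in SC10, 35.9 ± 1.3 CPM in SC07 and 42.1 ± 0.58 CPM in SC01. SC10 against SC07 did not pass the test for PDK3 (log2 0.1 ± 0.053, adjusted p = 0.126). PDK3 was lower in SC07 than in SC01 (log2 -0.23 ± 0.053) and in SC10 than in SC01 (log2 -0.13 ± 0.052, adjusted p = 0.028). The second of these calls was lost on leaving out any of 5 single libraries, namely SC10 replicate 1, 2 or 3 or SC01 replicate 2 or 3 (adjusted p from 0.0513 to 0.0764).

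The chromosomes of the members were looked at after the values were seen. In SC10 against SC07, all 7 members on chromosome 12 (PFKM, TPI1, GAPDH, ENO2, LDHB, SLC2A3 and SLC16A7) were lower. Of the 711 protein-coding genes tested on chromosome 12, 62.7% were lower and 12.9% higher, with a median log2 change of -0.34. Of the 5 members on chromosome 10, HK1, PFKP and PFKFB3 were higher, and HKDC1 (adjusted p = 0.0638) and PGAM1 (adjusted p = 0.182) did not pass the test, while 64.2% of the 517 protein-coding genes tested there were higher, with a median of 0.32. The 21 tested members on other chromosomes were 6 higher and 7 lower (61.9% called, against 47.9% of all genes), with a median of -0.07. Gene copy number was not measured in these data, and its part in these changes was not tested.

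Set beside the protein-coding genes within 5 Mb, some members moved in SC10 against SC07 as their neighbours did and others did not. GAPDH had a log2 change of -0.47 in SC10 against SC07, against a median of -0.45 over its 80 neighbours. TPI1 had -0.58 against -0.42, PFKM -0.47 against -0.36 and LDHB -0.46 against -0.34. SLC2A3 (-0.97) and SLC16A7 (-1.09) went further than their neighbours, whose medians were -0.42 and -0.34, and 8.64% and 2.3% of those neighbours had a lower value. ENO2 (-5.04) was below all its neighbours, whose median was -0.42. GAPDH, TPI1, ENO2 and SLC2A3 lie close together and share neighbours.

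On chromosome 10, PFKP (0.63) and PFKFB3 (0.53) had neighbours with medians of 0.41 and 0.43, and HK1 (0.69) had neighbours with a median of 0.27. SLC2A6 (1.32) and SLC16A1 (-0.76), on chromosomes 9 and 1, had neighbours near 0, with medians of -0.08 and -0.04. In SC07 against SC01 the members' widest changes stood away from their neighbours, at -1.88 against a median of 0.19 for HK2, 1.72 against -0.11 for PFKFB2 and 4.97 against -0.04 for SLC16A7. The chromosome 12 members were all 7 higher in SC07 than in SC01, although the median of that chromosome's genes was 0.02 and 35.6% of them were higher. GAPDH had 0.53 there against a median of -0.09 for its neighbours. In SC10 against SC01, 59.9% of that chromosome's genes were lower, but all its members except ENO2 lay above the median of their neighbours. GAPDH had 0.06 against -0.59, TPI1 -0.31 against -0.58, PFKM -0.11 against -0.27 and LDHB -0.21 against -0.41.

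**Figure D5:**
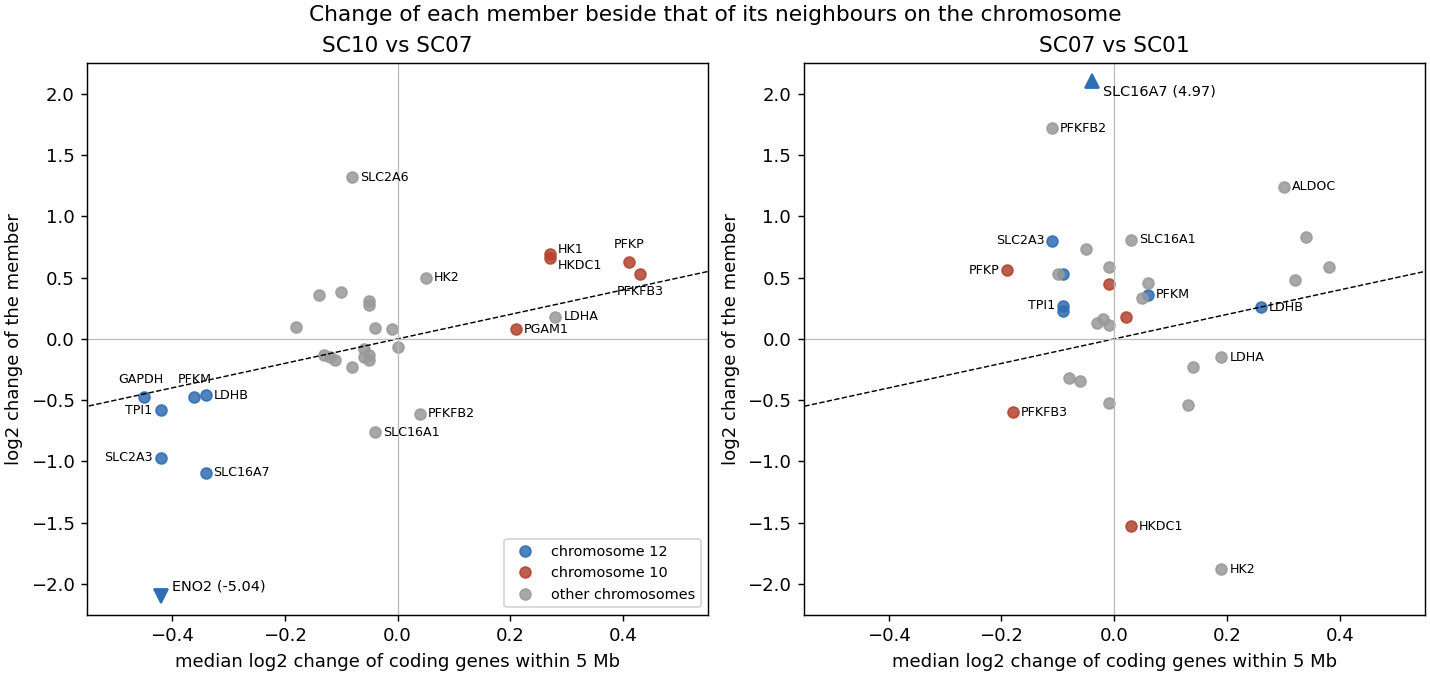
Log2 change of each tested member (vertical axis) beside the median of the protein-coding genes within 5 Mb of it (horizontal axis), in SC10 against SC07 (left) and SC07 against SC01 (right); the dashed line marks equal values, colours mark chromosomes, and triangles at the edge stand for values beyond the axis, given in brackets. GAPDH (-0.47) lies close to the line in the left panel, while ENO2 (-5.04) lies far below it.

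Genes for the uptake and use of pyruvate in mitochondria were next. Of 10 such genes tested, encoding pyruvate dehydrogenase, its phosphatases and the mitochondrial pyruvate carrier, 8 were higher and none lower in SC10 against SC01 (80.0% called, against 65.9% of all genes). In SC07 against SC01, 8 were higher and 1 lower (90.0%, against 62.0%), and in SC10 against SC07, 2 were higher and 1 lower (30%, against 47.9%). The list's median log2 change was 0.81 in SC10 against SC01, 0.70 in SC07 against SC01 and -0.03 in SC10 against SC07, where the median of all genes tested was -0.01 in each pair. PDHA1, the catalytic subunit of pyruvate dehydrogenase, was at 283 ± 13 CPM in SC10, 295 ± 3.5 CPM in SC07 and 139.6 ± 0.83 CPM in SC01 (log2 1.02 ± 0.043, adjusted p = 8.83e-18 in SC10 against SC01). MPC1, a subunit of the pyruvate carrier, changed by log2 1.01 ± 0.078 in SC10 against SC01 and 0.96 ± 0.078 in SC07 against SC01. PDP1, a phosphatase that reactivates pyruvate dehydrogenase, was at 174 ± 6.2 CPM in SC10, 100.5 ± 3.5 CPM in SC07 and 161 ± 3.7 CPM in SC01, higher in SC10 than in SC07 (log2 0.79 ± 0.045, adjusted p = 2.82e-14) and lower in SC07 than in SC01 (log2 -0.68 ± 0.045). SC10 and SC07 thus had more RNA than SC01 both for most of these genes and for PDK4, PDK1 and PDK2, which act against pyruvate dehydrogenase.

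Isozymes and side enzymes outside the members were mostly scarce, with 9 of 20 tested. Of these, 6 were higher and 2 lower in SC10 against SC07, 4 and 4 in SC10 against SC01, and 3 and 4 in SC07 against SC01, with median log2 changes of 0.28, 0.12 and -0.09 in these pairs. The shares called were 88.9%, 88.9% and 77.8%, against 47.9%, 65.9% and 62.0% of all genes. LDHD, which oxidises D-lactate in mitochondria, was at 26.8 ± 0.55 CPM in SC10, 17 ± 1.4 CPM in SC07 and 3.41 ± 0.57 CPM in SC01 (log2 2.98 ± 0.099, adjusted p = 3.88e-20 in SC10 against SC01 and 2.32 ± 0.1, adjusted p = 2.06e-17 in SC07 against SC01). PCK2, the mitochondrial enzyme that makes phosphoenolpyruvate, was at 22 ± 1.2 CPM in SC10, 13 ± 0.7 CPM in SC07 and 8.41 ± 0.45 CPM in SC01 (log2 1.39 ± 0.08, adjusted p = 1.13e-14 in SC10 against SC01). BPGM, which makes 2,3-bisphosphoglycerate, was lower in SC10 than in SC01 (log2 -0.55 ± 0.058).

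Of 8 pentose phosphate pathway genes tested, 2 were higher and 4 lower in SC10 against SC07, 1 and 5 in SC10 against SC01, and 1 and 4 in SC07 against SC01, with medians of -0.15, -0.20 and -0.10. Of all genes, 47.9%, 65.9% and 62.0% were called in these pairs. The share called in this list was above that of all genes in both pairs with SC10 and close to it in SC07 against SC01. TKT, transketolase, which links the pathway to glycolysis, changed by log2 -0.39 ± 0.041 in SC10 against SC07 and -0.53 ± 0.041 in SC10 against SC01. Of 20 genes of branches to glycogen, hexosamines, serine and glycerol phosphate, 4 were higher and 6 lower in SC10 against SC07, 13 and 5 in SC10 against SC01, and 13 and 4 in SC07 against SC01, with medians of -0.07, 0.33 and 0.50. For the branch genes the share called was close to that of all genes in SC10 against SC07 and above it in both pairs with SC01. PGM1, which joins glycolysis to glycogen, changed by log2 1.31 ± 0.045 (adjusted p = 1.10e-19) in SC10 against SC01 and 1.25 ± 0.045 (adjusted p = 2.93e-19) in SC07 against SC01. GFPT1 and GFPT2, isozymes that open the hexosamine branch, went in opposite directions in SC07 against SC01 (log2 1.06 ± 0.045 for GFPT1 and -1.31 ± 0.096 for GFPT2).

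Among 15 other sugar and monocarboxylate carriers and chaperones tested, 6 were higher and 3 lower in SC10 against SC07, 10 and 2 in SC10 against SC01, and 7 and 2 in SC07 against SC01, with medians of 0.26, 0.45 and 0.28. The shares called were 60.0%, 80.0% and 60.0%, against 47.9%, 65.9% and 62.0% of all genes. SLC2A13, a proton-coupled inositol carrier, was at 101 ± 5.9 CPM in SC10, 41.4 ± 1.2 CPM in SC07 and 14.7 ± 0.17 CPM in SC01 (log2 1.29 ± 0.052, adjusted p = 1.36e-17 in SC10 against SC07 and 2.78 ± 0.058, adjusted p = 1.14e-24 in SC10 against SC01). Scarcer carriers changed more in SC10 against SC01. SLC2A4 (log2 3.49, 4.58 CPM in SC10) and SLC5A1 (log2 4.34, 1.47 CPM in SC10) were higher in SC10. SLC16A9 (log2 -6.3, 1.04 CPM in SC01) was lower. EMB, embigin, the chaperone of MCT2, was at 7.55 ± 0.7 CPM in SC10, 1.42 ± 0.3 CPM in SC07 and 1.29 ± 0.19 CPM in SC01 (log2 2.40 ± 0.16, adjusted p = 1.21e-12 in SC10 against SC07 and 2.54 ± 0.17, adjusted p = 1.54e-13 in SC10 against SC01). EMB thus ran apart from SLC16A7, which was highest in SC07. BSG, basigin, the chaperone of MCT1 and MCT4, was named after its values were seen and was lower in SC10 than in SC07 (log2 -0.34 ± 0.043) and in SC01 (log2 -0.37 ± 0.043).

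Among 21 regulators of glycolytic genes, 4 were higher and 7 lower in SC10 against SC07, 6 and 12 in SC10 against SC01, and 6 and 9 in SC07 against SC01, with medians of -0.03, -0.28 and -0.08. The shares called were 52.4%, 85.7% and 71.4%, against 47.9%, 65.9% and 62.0% of all genes. PPARGC1A, a coactivator of mitochondrial genes, was at 433 ± 35 CPM in SC10, 468 ± 6.4 CPM in SC07 and 30.2 ± 1 CPM in SC01 (log2 3.84 ± 0.056, adjusted p = 6.22e-28 in SC10 against SC01 and 3.96 ± 0.057, adjusted p = 2.05e-28 in SC07 against SC01). TXNIP, which restrains glucose uptake, was at 56.6 ± 0.84 CPM in SC10, 88.8 ± 2.2 CPM in SC07 and 176 ± 1.8 CPM in SC01 (log2 -0.65 ± 0.044, adjusted p = 1.51e-12 in SC10 against SC07). MLXIP, a glucose-sensing transcription factor, was lower in SC10 than in SC07 (log2 -0.78 ± 0.049, adjusted p = 3.47e-13), while its relative MLXIPL, at 1.03 CPM in SC10, 0.586 CPM in SC07 and 0.117 CPM in SC01, was higher (log2 0.82 ± 0.33, adjusted p = 0.0414). ARRDC4, which like TXNIP is a known MLXIP target, was named after its values were seen. Its level was 17.5 CPM in SC10, 17.5 CPM in SC07 and 47.7 CPM in SC01. ARRDC4 did not pass the test in SC10 against SC07 (log2 0.01 ± 0.066, adjusted p = 0.938). In both pairs with SC01, ARRDC4, TXNIP and MLXIP were each called lower in the other clone than in SC01. The part of MLXIP in these changes was not tested. HIF1A, the oxygen-regulated factor, was named after its values were seen, at 70.6 ± 6.8 CPM in SC10, 66.5 ± 1.4 CPM in SC07 and 71.5 ± 1.8 CPM in SC01, and passed the test in no pair (adjusted p of 0.219 in SC10 against SC07, 0.789 in SC10 against SC01 and 0.109 in SC07 against SC01). From the same list, EPAS1, another hypoxia-inducible factor, was lower in SC10 than in SC07 and in SC01 (log2 -0.37 ± 0.066 and -0.35 ± 0.066). VHL and EGLN1 were also lower in SC10 than in both, while ARNT passed the test in no pair. RNA levels do not give the activity of these factors, which was not measured. EGLN3, a prolyl hydroxylase induced by hypoxia-inducible factor, was at 0.0469 ± 0.042 CPM in SC10, 0.0841 ± 0.076 CPM in SC07 and 3.7 ± 0.25 CPM in SC01, and it was lower in SC10 and in SC07 than in SC01.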

How the data were processed

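The authors deposited raw counts for 60675 Ensembl genes in 9 libraries. Per the submitters' processing notes, GRCh38, HISAT2 and featureCounts were involved. No version of these tools, no annotation release, no strand setting and no handling of multimapping reads is given in the sources used here. All can change counts of overlapping genes and near-identical copies. Symbols, coordinates and exon lengths were read from GENCODE 29 (GRCh38), in which 57055 IDs were found. Against the library totals, 3 counts equal 0.0760 to 0.0993 CPM, a floor that covers counting error only.

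Genes passing filterByExpr (18009) were scaled by TMM. The quasi-likelihood model of edgeR 4.0.16 (R 4.3.3, robust setting) was fitted to the counts of 9 libraries at once. P-values were adjusted by Benjamini-Hochberg over all genes tested, with a threshold of 0.05. Each pair of clones and the 3 clones together were tested. Standard errors were computed from the log2 change and its F statistic, and are too small where a clone has few counts. Shares of isozymes were described without a test. The tests were checked on simulated counts.

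The members and gene lists were chosen with earlier results of these data known. Every library's value is given for the member with the highest level per kb in each step with 2 or more members, and for members past the threshold with at least 2-fold change in a pair. Of other lists, up to 3 genes per pair with the largest change past the threshold and at least 1 CPM in the higher clone could be named. As alternatives, other scalings and low-count filters, DESeq2 1.42.0, voom in limma 3.58.1, a 1.5-fold threshold in the test, fits of single pairs, fits without the robust setting, a replicate block and the omission of single libraries were run.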

Additional observations from a re-analysis of the deposited data

How the results depend on the processing

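With other count scalings except total counts, a 1 CPM filter, DESeq2, voom, a non-robust fit and each pair fitted alone, the calls of the members did not change, apart from ENO1 in SC07 against SC01 with upper-quartile scaling (log2 0.09, adjusted p = 0.0778). Against a 1.5-fold change, 1444 genes were called in SC10 against SC07, 4192 in SC10 against SC01 and 3703 in SC07 against SC01, with 2, 8 and 7 members higher and 4, 2 and 2 lower. Leaving out each library in turn gave 7627 to 8548, 11299 to 12026 and 10454 to 11793 called genes in the same pairs, with 9 to 10, 15 and 22 to 24 members higher and 13 to 15, 9 to 12 and 8 to 9 lower. For the 3 clones together it gave 13321 to 13904 genes and 31 to 33 members. Changes that turned sign had not passed the test. In SC10 against SC07 these were SLC16A3 (-0.31 to 0.1 over the left-out libraries, turned without SC10 replicate 1 or SC07 replicate 3, at 0.09 and 0.1) and ENO3 (-0.0037 to 0.22, turned without SC10 replicate 3). In SC10 against SC01, total counts turned GAPDH (-0.05), ENO1 (-0.08), LDHA (-0.08) and SLC16A1 (-0.06), leaving out libraries gave -0.0043 to 0.06 for ENO1, -0.0021 to 0.05 for LDHA and -0.02 to 0.01 for PKM, and no filter gave 0.00098 for PKM (0.0037 without SC01 replicate 3, 0.0038 without SC07 replicate 2). With total counts the calls in SC10 against SC01 were 5044 higher and 7094 lower, against 6028 and 5836, and the median of all genes was -0.12. Without the filter on low counts, PFKM (adjusted p = 0.0754) and PDK3 (0.0943) were not called in SC10 against SC01. The cause was not tested.

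Replicate numbers did not pair the libraries, since same-numbered libraries' deviations correlated at -0.0195 to 0.0429. With the replicate block 8754, 11926 and 11249 genes were called in the 3 pairs, no member's call in a pair changed, and 33 members were called over the 3 clones together, ENO1 included. Genes near 1 CPM, such as SLC16A3 and HKDC1, are limited by depth.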
